A study of Mus musculus with 6 samples.

Results

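The phagocyte NADPH oxidase is the enzyme with which neutrophils make superoxide. The 9 genes described here are Cybb, Cyba, Cybc1, Ncf1, Ncf4, Rac1, Rac2, Rap1a and Hvcn1, taken by symbol from the 52636 genes listed in the expression table, and they do not hold every subunit of the enzyme. Of these, 8 were listed under the same symbol. Cybc1 was read from the row named BC017643, because both promoter sequences that RefSeq gives for Cybc1 were found once on chromosome 11 of NCBIM37 and overlapped BC017643 on its own strand. All 9 were among the 9775 genes whose mean over the libraries reached 1 TPM (a transcript's level, corrected for its length and scaled to one total per library), and these 9775 genes were tested.

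To learn how LRP5, a Wnt co-receptor, acts in neutrophils, the study sequenced RNA of bone marrow neutrophils from C57BL/6N mice aged 10 weeks. There were 3 libraries labelled WT and 3 labelled LRP5-null, the latter from mice with loxP-flanked Lrp5 alleles and Cre expressed from Lyz2. Lyz2 is a gene of the myeloid lineage, so that deletion with this Cre is not limited to neutrophils. Neither the labels nor the methods say whether libraries of one label came from separate mice, and p-values then measure only the spread between libraries, which may be technical.

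In a resting neutrophil the oxidase lies apart in membranes and cytosol. Cybb (gp91phox) and Cyba (p22phox) form the membrane-bound cytochrome b558 that passes electrons from NADPH to oxygen. On stimulation, cytosolic subunits with Ncf1 (p47phox) and Ncf4 (p40phox) and a GTP-bound Rac protein dock on it, and loss of several of these proteins causes chronic granulomatous disease, in which phagocytes fail to kill some bacteria and fungi.

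The libraries differed in ways other than their label. Ribosomal RNA took 1.20% and 1.30% of reads in WT replicates 1 and 2, but 3.30% in WT replicate 3, close to the LRP5-null range of 2.69% to 2.98%. The GC content of transcripts sorted the libraries in the same way: the Spearman correlation, across 8769 genes, between GC content and the deviation of a library from the mean of all 6 was -0.61 and -0.43 in WT replicates 1 and 2, and 0.33 to 0.44 in the other 4 libraries. Genes are not independent replicates, and these values describe the libraries. In these 2 measures WT replicate 3 stood with the libraries labelled LRP5-null, and results that rest on it are given with and without it. Without it, both measures divided the libraries as the label did, so label and measures cannot be told apart. Other read classes followed the label: introns took 8.6%, 7.78% and 9.0% of reads in the WT libraries against 10.6% to 11.2% under the LRP5-null label, and coding or UTR bases took 83.8% to 87.0% against 81.9% to 82.4%. The part of these shares in the values below was not tested. The Lrp5 transcript checks the labels, and it was 1.12, 1.31 and 1.42 TPM in the WT libraries and 1.68, 1.77 and 2.07 TPM in those labelled LRP5-null. It was not lower under the LRP5-null label, so every direction below rests on the labels. Whether the reads of Lrp5 fell within the deleted part is unknown from gene totals. Lyz2, the gene that carries Cre, fell to 14027, 13989 and 13360 TPM from 26791, 26300 and 24797 TPM (log2 fold change -0.91, limma adjusted p = 0.00351). Xist, at 3.95 to 5.48 TPM, and the Y-linked genes Ddx3y, Eif2s3y, Kdm5d and Uty, of which the lowest value was 0.711 TPM, were both found in every library.

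Neutrophil transcripts dominated all 6 libraries. The 10 neutrophil markers, among them S100a8, S100a9 and Ly6g, summed to 356906 to 405108 TPM under the WT label and to 389037 to 413447 TPM under the LRP5-null label. S100a9 gave most of that sum, with a mean of 214290 TPM. Of 11 tested rows for these markers, 2 were higher and 1 lower under the LRP5-null label without overlap (all genes: 17.4% and 12.3%). Markers of T and NK cells summed to 11.7 to 13.6 TPM and 16.0 to 17.4 TPM, without overlap, with 6 of 8 markers below 1 TPM (Cd3e, Cd3g, Cd8a, Trac, Klrd1 and Il2rb) and Cd3d giving most of the sum. The sums overlapped for markers of monocytes and macrophages (52.3 to 63.5 and 61.5 to 69.7 TPM, mostly Csf1r), eosinophils (148 to 173 and 151 to 159 TPM, mostly Ear2), B cells (13.1 to 14.7 and 12.9 to 14.0 TPM) and erythroid cells (11.9 to 15.8 and 11.7 to 14.1 TPM). For monocytes and macrophages only WT replicate 3, at 63.5 TPM, reached the LRP5-null range. Of their 6 tested markers, 2 were higher and 0 lower under the LRP5-null label without overlap (all genes: 17.4% and 12.3%). No marker that was listed was at 0 in the mean, and the 1 marker called was the eosinophil gene Prg2, with means of 1.02 and 2.79 TPM (limma adjusted p = 0.0341). The part of other cells in the values below was not tested.

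The oxidase genes were abundant and spread over more than an order of magnitude in level. Cyba was highest, with a mean of 1704 TPM over the 6 libraries, followed by Ncf1 at 1123 TPM, Rac2 at 897 TPM, Cybb at 886 TPM and Ncf4 at 534 TPM. The other 4 were lower, with Rac1 at 119 TPM, Rap1a at 89.4 TPM, Cybc1 at 85.5 TPM and Hvcn1 at 76.1 TPM. Cyba was above Ncf1, Ncf1 above Rac2 and Cybb above Ncf4 in 6 of 6 libraries, as was Cybc1 above Hvcn1 and Ncf4 above Rac1. The order of other neighbours varied, with Rac2 above Cybb and Rac1 above Rap1a in 4 of 6 libraries each. Rap1a was above Cybc1 in the 3 WT libraries and below it in the 3 labelled LRP5-null. The 9 genes summed to 5169 to 5881 TPM under the WT label and to 5454 to 5596 TPM under the LRP5-null label, which is 0.517% to 0.588% of all TPM. The plot of levels shows each library.

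**Figure D1:**
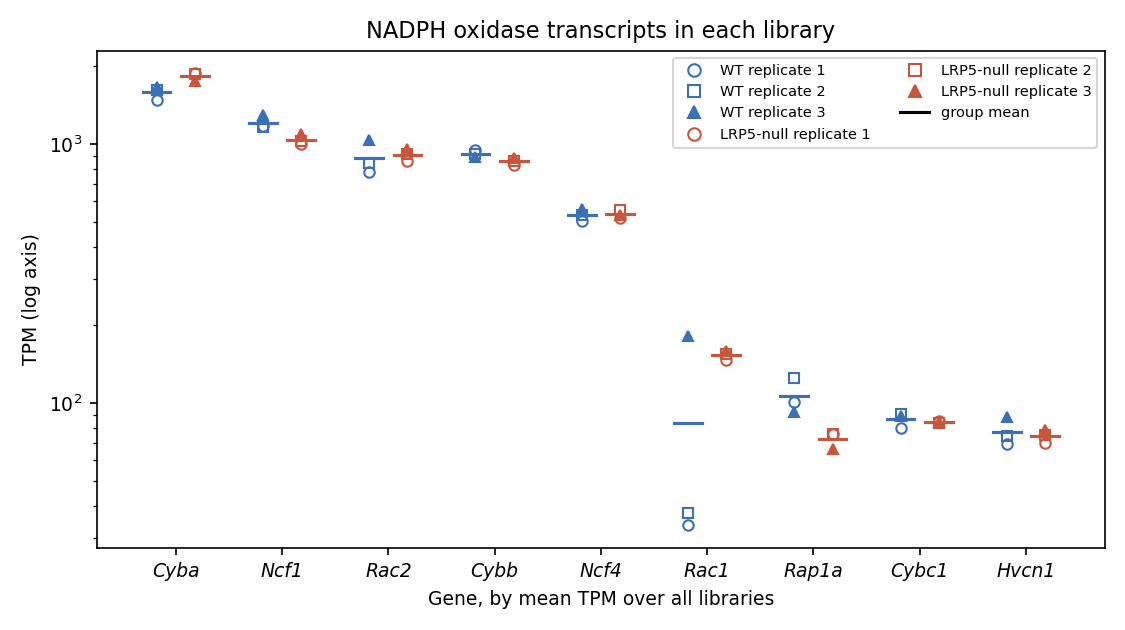
TPM of each of the 9 NADPH oxidase genes (log axis) in each library, with WT in blue, LRP5-null in red, marker shape for the replicate number and a bar at the group mean. Most genes lay close together in all 6 libraries, while Rac1 was 33.7 and 37.5 TPM in WT replicates 1 and 2 and 180 TPM in WT replicate 3.

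Whether the oxidase transcripts differed between the labels was tested with limma on log2(TPM + 1), a scale on which the change of low genes is understated, with adjustment over all genes tested. None of the 9 genes had an adjusted p under 0.05, against 0.532% of all genes tested (52 of 9775). At an unadjusted p under 0.05 there were 3 of 9, Cyba with a higher value and Ncf1 and Rap1a with lower values under the LRP5-null label, against 23.5% of all genes, 14.4% with a higher and 9.12% with a lower value. Cyba was the 1 member whose LRP5-null libraries all lay above the WT libraries (17.4% of all genes did), and Cybb, Ncf1 and Rap1a were the 3 whose LRP5-null libraries all lay below (12.3% of all genes did). The other 5 overlapped. The median log2 fold change was -0.03 over the 9 genes and 0.04 over all genes tested, and 4 of the 9 were above 0. In bulk RNA, fewer cells of a type and less RNA of a gene per cell cannot be told apart.

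Cyba (NCBIM37 chromosome 8, 124948672 to 124956840, minus strand) encodes the smaller chain of cytochrome b558, which stabilises the larger chain and holds the docking site for p47phox. It was 1481, 1612 and 1660 TPM in the WT libraries and 1871, 1857 and 1743 TPM in those labelled LRP5-null. Every library labelled LRP5-null was above every WT library, with the gap between 1660 and 1743 TPM. Its log2 fold change in limma, 0.20 (standard error 0.066, 95% interval 0.05 to 0.36), did not pass the adjustment (limma adjusted p = 0.149). Without WT replicate 3 it was 0.24 and passed (limma adjusted p = 0.0425), where 19.6% of all genes did, and with trends along GC content and transcript length taken out of each library it was 0.02 (limma adjusted p = 0.862).

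Cybb (chromosome X, 9012378 to 9064897, minus strand) encodes the catalytic chain that carries the flavin and the hemes. Its level was 944, 911 and 889 TPM in WT libraries and 830, 855 and 884 TPM under the LRP5-null label. The groups did not overlap, but LRP5-null replicate 3 and WT replicate 3 were close, at 884 and 889 TPM. This was a log2 fold change of -0.10 (standard error 0.058, 95% interval -0.23 to 0.04, limma adjusted p = 0.354), and it was 0.01 once GC and length trends had been taken out. Xist and Y-linked transcripts were both present in every library, and Y-linked Kdm5d, at 1.17 to 1.43 TPM in WT libraries and 2.16 to 2.60 TPM under the LRP5-null label, did not overlap between groups, while Ddx3y, Eif2s3y, Uty and Xist did. Their part in the level of this X-linked gene was not tested.

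The starts of these partner genes are shown because the proteins are needed together in one complex while their transcripts stood on opposite sides of the WT libraries. The windows run from 250 bases before to 50 bases after the start in RefSeq (GRCm38.p6, minus strand, read in the direction of the gene), chrX:9469275-9469574 for Cybb and chr8:122432891-122433190 for Cyba. Capitals mark TTCCTC, the reverse complement of GAGGAA, a core recognised by the myeloid transcription factor PU.1.
Cybb: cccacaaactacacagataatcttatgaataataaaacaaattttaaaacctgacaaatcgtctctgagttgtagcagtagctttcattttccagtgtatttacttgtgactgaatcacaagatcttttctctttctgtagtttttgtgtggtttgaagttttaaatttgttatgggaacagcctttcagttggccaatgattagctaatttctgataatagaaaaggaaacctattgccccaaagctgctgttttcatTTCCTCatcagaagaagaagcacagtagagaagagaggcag
Cyba: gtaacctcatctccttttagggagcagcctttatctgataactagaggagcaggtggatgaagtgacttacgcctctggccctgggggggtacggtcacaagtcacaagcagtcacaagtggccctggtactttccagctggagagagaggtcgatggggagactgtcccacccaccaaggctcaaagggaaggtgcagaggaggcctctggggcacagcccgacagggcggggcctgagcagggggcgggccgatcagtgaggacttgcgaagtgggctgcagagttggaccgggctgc
The Cybb window held GAGGAA once, on the opposite strand and from base 10 after the start, and the Cyba window held it on neither strand. Of 32851 promoter windows of this length, 28.3% held it on either strand, so 1 match is a description of these letters. The windows also differed in base composition, with 35.3% G or C and 1 CG pair in that of Cybb, and 60.7% and 9 CG pairs in that of Cyba. Their transcripts differed likewise, at 42.4% G or C for Cybb and 59.4% for Cyba.

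A ratio of Cybb to Cyba within a library does not change when the library is scaled by a single factor. It was 0.637, 0.565 and 0.536 in the WT libraries and 0.444, 0.460 and 0.507 in those labelled LRP5-null. All 3 libraries labelled LRP5-null were below all 3 WT libraries, and the difference of the means was -0.30 on the log2 scale (p = 0.1 in a two-sided exact permutation test, which cannot give a smaller p with 3 libraries a group). With GC and length trends taken out, the difference was -0.01 (exact permutation test, two-sided, p = 1.0). The cause of this shift was not tested.

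Cybc1 (chromosome 11, 121083902 to 121090636, minus strand) encodes Eros, a chaperone of the endoplasmic reticulum without which gp91phox and p22phox are not kept at the protein level. It was 79.9, 90.4 and 89.2 TPM in the WT libraries and 85.3, 83.5 and 84.4 TPM in those labelled LRP5-null. The values of the LRP5-null label fell inside the WT range. Its log2 fold change was -0.03 (95% interval -0.20 to 0.13, limma adjusted p = 0.808).

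Ncf1 encodes p47phox, the organizer that is phosphorylated on stimulation and then carries the cytosolic complex to the membrane. The gene covers bases 134695923 to 134705495 of chromosome 5, minus strand. Its transcript stood at 1176, 1161 and 1288 TPM in the WT libraries and at 994, 1026 and 1093 TPM under the LRP5-null label. The 3 libraries of that label were all below the 3 WT libraries, and WT replicate 3 was the highest of all. Limma gave a log2 fold change of -0.22 (standard error 0.069, 95% interval -0.38 to -0.06, limma adjusted p = 0.141). It was -0.31 against WT replicate 3 alone and -0.17 without that library, neither past the threshold. With GC and length trends taken out it was -0.29 and passed (limma adjusted p = 0.0236), where 4.85% of 8769 genes did.

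Ncf4, at 504, 529 and 562 TPM in the WT libraries and 519, 556 and 533 TPM under the LRP5-null label, did not separate the groups. It encodes p40phox, which binds a phosphoinositide of the phagosome membrane, and covers bases 78075231 to 78093010 of chromosome 15, plus strand. Its log2 fold change was 0.01 (95% interval -0.14 to 0.17, limma adjusted p = 0.926), and 6 of 18 alternative fits put it below 0. The ratio of Ncf1 to Ncf4 was 2.33, 2.20 and 2.29 in WT libraries and 1.92, 1.84 and 2.05 in those labelled LRP5-null. Here the groups did not overlap, whichever WT library was taken, and the difference of the means was -0.23 on the log2 scale (exact permutation test, two-sided, p = 0.1). It was -0.18 with GC and length trends taken out and -0.24 against WT replicate 3 alone.

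**Figure D2:**
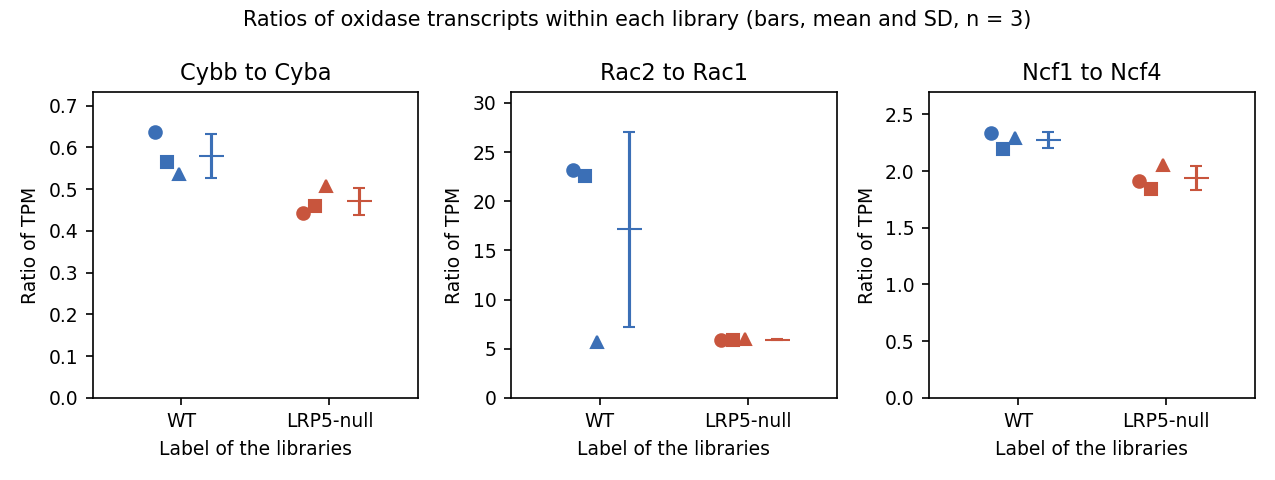
Ratio of TPM within each library for Cybb to Cyba, Rac2 to Rac1 and Ncf1 to Ncf4, by label, with circle, square and triangle for replicates 1, 2 and 3 and bars for the mean and SD of 3 libraries. Both outer ratios were lower in all 3 LRP5-null libraries, while Rac2 to Rac1 split the WT libraries into 23.2 and 22.5 against 5.71.

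The GTPases gave the widest differences among libraries. Rac1 (chromosome 5, 144266346 to 144288904, minus strand) encodes the Rac protein found in nearly all cell types. It was 33.7, 37.5 and 180 TPM in the WT libraries and 146, 154 and 159 TPM in those labelled LRP5-null. The 4 libraries with the larger ribosomal share, one of them WT replicate 3, lay between 146 and 180 TPM, and WT replicates 1 and 2 stood far below them. Among the WT libraries the highest value was 5.35 times the lowest, and on the log2 scale this range of 2.39 was number 17 of 9775 genes, while the LRP5-null libraries covered 0.12. The log2 fold change was 1.31 (standard error 0.57, 95% interval -0.02 to 2.63, limma adjusted p = 0.218). Without WT replicate 3 it was 2.08 (standard error 0.073, limma adjusted p = 0.00028), where 19.6% of all genes passed. Against WT replicate 3 alone it was -0.23 (limma adjusted p = 0.244), with the lone library assumed to vary like the others, and with the ribosomal share as a covariate it was 0.26 (limma adjusted p = 0.202). The sign of the Rac1 difference thus changed with the WT library used. At the higher ribosomal share the 1 WT library was above all 3 libraries labelled LRP5-null, and no library of that label had the low share.

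Rac2 (chromosome 15, 78389599 to 78403213, minus strand) encodes the Rac protein of blood cells that serves the neutrophil oxidase. Its level was 781, 844 and 1031 TPM in the WT libraries and 862, 911 and 954 TPM under the LRP5-null label. WT libraries were both the highest and the lowest. For Rac2 the log2 fold change was 0.05 (95% interval -0.20 to 0.29, limma adjusted p = 0.817), with 0.16 without WT replicate 3 and -0.18 against that library alone. The ratio of Rac2 to Rac1 was 23.2, 22.5 and 5.71 in the WT libraries and 5.90, 5.90 and 5.99 in those labelled LRP5-null. Expressed as a share, Rac1 made up 4.13%, 4.25% and 14.9% of Rac1 plus Rac2 in WT libraries and 14.3% to 14.5% under the LRP5-null label. WT replicate 3 stood with the LRP5-null libraries in this ratio, and the group difference of -1.28 on the log2 scale had p = 0.4 (exact permutation test, two-sided).

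Because Rac1 and Rac2 are paralogs, reads could be shared between them. Their coding sequences have 579 bases each and were identical at 77.0% of them in GENCODE M1 (NCBIM37). Over 486 windows of 94 bases, the read length in the read summary (the methods give a shorter one), the paralogs differed at a median of 20 bases. The most alike window is shown, from coding base 328 to 421, in which the 10 bases that differ are capitals.
Rac1: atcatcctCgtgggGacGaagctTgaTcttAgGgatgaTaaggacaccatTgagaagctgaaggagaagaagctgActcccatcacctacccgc
Rac2: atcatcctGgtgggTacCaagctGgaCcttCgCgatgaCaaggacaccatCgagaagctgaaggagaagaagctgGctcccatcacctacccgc
No window of the coding sequence was thus identical between them over a whole read, and the longest identical run had 29 bases. How the authors assigned reads that align to more than one gene is not given in the sources used here.

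Rap1a (chromosome 3, 105530185 to 105604248, minus strand) encodes a Ras-like GTPase that copurifies with cytochrome b558. It was 101, 125 and 92.5 TPM in the WT libraries and 76.0, 75.5 and 66.4 TPM in those labelled LRP5-null. All libraries labelled LRP5-null were below the lowest WT library. The log2 fold change was -0.53 (standard error 0.12, 95% interval -0.81 to -0.25). In limma this had the smallest p of the 9 genes, 0.00242, and did not pass the adjustment (limma adjusted p = 0.0892). It was -0.62 without WT replicate 3, where it passed (limma adjusted p = 0.0191), as did 19.6% of all genes. Against WT replicate 3 alone it was -0.35. Rap1a had the lowest GC content of the 9 transcripts, 38.7%, and with GC and length trends taken out the value was -0.27 (limma adjusted p = 0.219).

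Its paralog Rap1b was the more abundant, at 920, 748 and 541 TPM in the WT libraries and 554, 551 and 534 TPM under the LRP5-null label. WT replicate 3 stood with the LRP5-null libraries for Rap1b, and between the other WT libraries and that group for Rap1a. The log2 fold change of Rap1b was -0.40 (limma adjusted p = 0.215), and 0.01 against WT replicate 3 alone. The coding sequences of Rap1a and Rap1b, compared over 555 bases, were identical at 81.6%. Their most alike stretch of 94 bases, coding bases 22 to 115, is shown with the 11 differing bases in capitals, since here too reads could be shared.
Rap1a: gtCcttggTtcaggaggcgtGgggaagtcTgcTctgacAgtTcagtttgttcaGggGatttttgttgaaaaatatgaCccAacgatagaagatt
Rap1b: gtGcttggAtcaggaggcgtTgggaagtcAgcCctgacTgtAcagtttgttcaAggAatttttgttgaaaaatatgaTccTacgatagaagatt
The median over 462 windows was 16 differences, and the longest identical run had 20 bases.

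**Figure D3:**
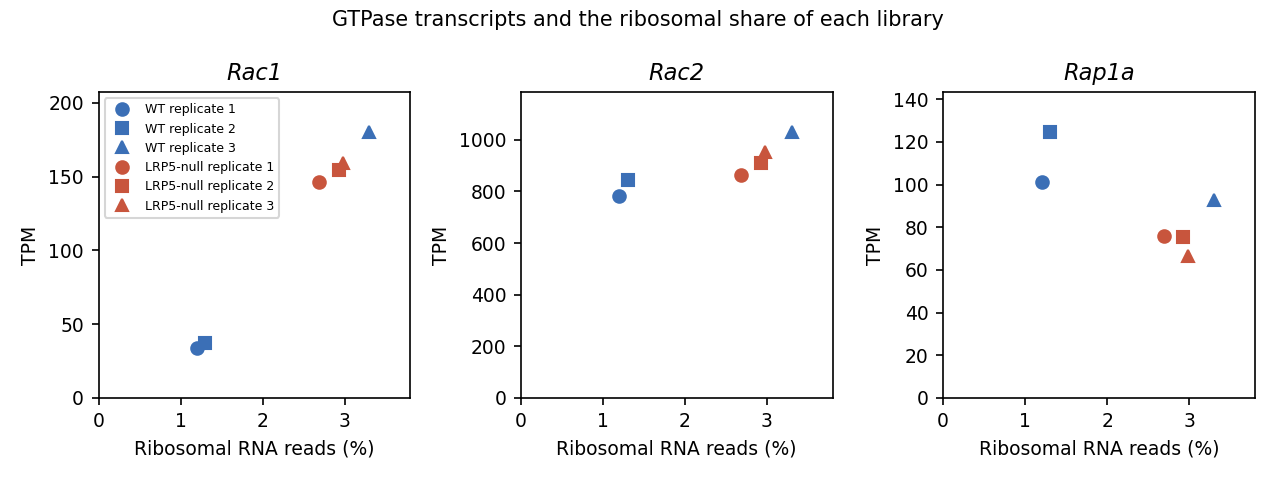
TPM of Rac1, Rac2 and Rap1a in each library against the percent of its reads in ribosomal RNA, with WT in blue and LRP5-null in red. Rac1 was 33.7 and 37.5 TPM at a ribosomal share of 1.20% and 1.30% and 146 to 180 TPM in the 4 libraries at 2.69% or more, whatever their label.

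Hvcn1 encodes the voltage-gated proton channel that carries out the charge balance for the electrons the oxidase moves, and covers bases 122656813 to 122692306 of chromosome 5, plus strand. The transcript was 69.4, 74.4 and 88.5 TPM in the WT libraries and 70.3, 75.3 and 78.6 TPM in those labelled LRP5-null. The LRP5-null values lay within the WT range. Hvcn1 had a log2 fold change of -0.04 (95% interval -0.28 to 0.19, limma adjusted p = 0.817), and -0.24 against WT replicate 3 alone (limma adjusted p = 0.275).

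In GENCODE M1, Cyba, Cybc1, Ncf1 and Hvcn1 each overlap 1 gene on the opposite strand (Gm20388, Hexdc, Gtf2ird2 and Tctn1). None of the 9 overlaps a gene on its own strand there, and other gene sets were not checked. Between 99.37% and 99.51% of reads were on the stated strand, but whether strand was used in making the TPM is not given in the sources used here. The plot of fold changes sets the fits side by side. Cyba stayed above 0 and Ncf1 and Rap1a below 0 in all 18 alternatives, whereas Rac1, Rac2, Ncf4, Hvcn1, Cybb and Cybc1 changed sign in at least 1. Several of these alternatives change only the error or the genes tested and leave the fold change as it was.

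**Figure D4:**
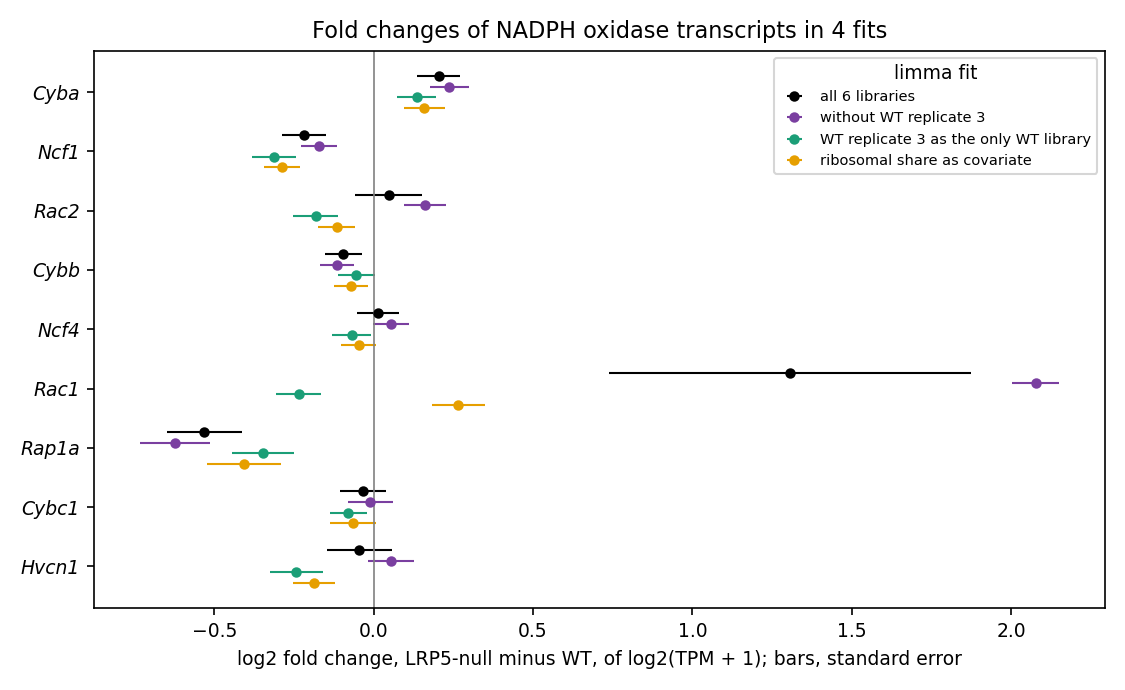
Log2 fold change of each oxidase gene, LRP5-null minus WT, on log2(TPM + 1) from limma with all 6 libraries, without WT replicate 3, with WT replicate 3 as the only WT library, and with the ribosomal share as a covariate. Bars are standard errors. Rac1 ran from -0.23 to 2.08 over these fits, while Cyba, Ncf1 and Rap1a stayed on one side of 0.

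The patterns most like those of Cybb and Rac1 were sought by Pearson correlation of log2(TPM + 1) over the 6 libraries among all 9775 genes, which share the same libraries and their base composition. For Cybb these were Mfap1b (0.996), Calcrl (0.996) and Ppp1r2 (0.994). For Rac1 they were AY036118 (0.999), Gm27517 (0.997) and Zfp410 (0.996). AY036118, which in RefSeq overlaps Rn18s-rs5, a sequence related to ribosomal RNA, was 28.2, 31.6 and 80.8 TPM in the WT libraries and 68.7, 72.3 and 73.9 TPM under the LRP5-null label. Gm27517 was 0.065, 0.075 and 82.4 TPM in the WT libraries and 64.3, 68.5 and 82.3 TPM under that label. Both divided the libraries as Rac1 did, with WT replicates 1 and 2 low. The part of ribosomal RNA in the Rac1 values was not tested. These genes had the highest of 9775 correlations over 6 libraries, so high values come in part from that choice.

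Genes around the oxidase were drawn up from general knowledge in 7 lists of 79 genes, of which 63 passed the filter. None had an adjusted p under 0.05, 9 had a higher and 4 a lower value at an unadjusted p under 0.05, and the groups did not overlap for 9 higher and 7 lower genes, where all genes tested had 14.4% higher and 9.12% lower at that p, and 17.4% higher and 12.3% lower without overlap. The median of each list lay between -0.04 and 0.10. Most genes named below had the smallest p of their list, so lack of overlap among them comes in part from that choice. The 9 genes of other NOX and DUOX enzymes and their partner proteins, a family that makes superoxide or hydrogen peroxide in other tissues, were at most 0.237 TPM in any library, and none was tested.

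**Figure D5:**
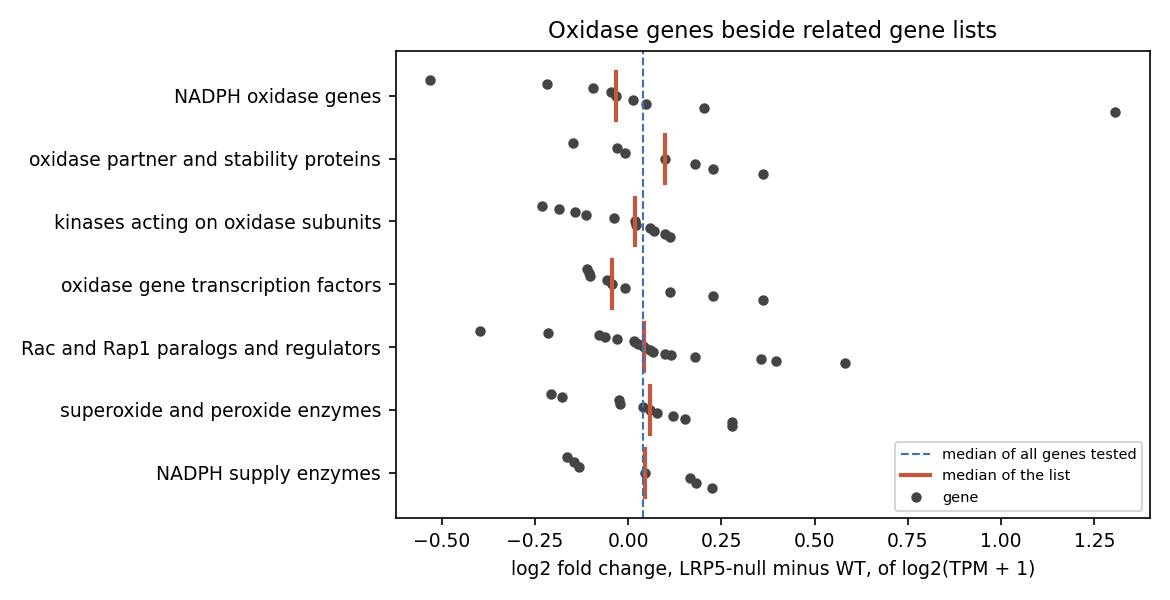
Log2 fold change, LRP5-null minus WT, on log2(TPM + 1), of each tested gene in the oxidase list and in 6 related lists (points), with the list's median as a red bar and the median of all genes tested, 0.04, as a dashed line. Rac1, at 1.31, lay farthest from 0, and Rap1a, at -0.53, was the lowest.

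Kinases that phosphorylate oxidase subunits had a median of 0.02 over 11 genes, with 0 higher and 1 lower at an unadjusted p under 0.05 (all genes: 14.4% and 9.12%). This was Pak2, a kinase activated by Rac, at 124, 119 and 125 TPM against 101, 108 and 114 TPM under the LRP5-null label (log2 fold change -0.19, limma adjusted p = 0.175). Irak4, a kinase of Toll-like receptor signaling, had -0.14 (limma adjusted p = 0.225). Prkcb, the protein kinase C form that acts on p47phox, had 0.11 (limma adjusted p = 0.444). The groups did not overlap for the first and the second of these, where 12.3% of all genes were lower without overlap.

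Paralogs and regulators of Rac and Rap1 had a median of 0.04 over 18 genes, with 2 higher and 0 lower at an unadjusted p under 0.05 (all genes: 14.4% and 9.12%). Rapgef1, an exchange factor that loads Rap1 with GTP, was 10.7, 12.9 and 15.3 TPM in the WT libraries and 18.7, 19.6 and 20.9 TPM in those labelled LRP5-null. Its groups did not overlap. Rapgef1 differed by 0.58 on the log2 scale (limma adjusted p = 0.0855), and by 0.34 against WT replicate 3 alone. Bcr, which speeds GTP hydrolysis by Rac, had 0.40 (limma adjusted p = 0.125), again without overlap, and 0.18 against WT replicate 3 alone.

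Proteins that bind the oxidase or act on its stability had a median of 0.10 over 7 genes, with 2 higher and 0 lower at an unadjusted p under 0.05 (all genes: 14.4% and 9.12%). S100a9, which with S100a8 forms a calcium-binding pair that interacts with the oxidase, was 204166, 203967 and 195191 TPM against 229906, 230639 and 221870 TPM under the LRP5-null label (log2 fold change 0.18, limma adjusted p = 0.114). S100a8, named after its value was seen, had -0.15 (limma adjusted p = 0.516), with overlap. Nrros, which promotes the breakdown of gp91phox, had 0.36 (limma adjusted p = 0.16). Neither S100a9 nor Nrros overlapped between groups, where 17.4% of all genes were higher without overlap. Rubcn, which acts with the oxidase in LC3-associated phagocytosis, overlapped at 0.23 (limma adjusted p = 0.335).

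Enzymes that supply NADPH had a median of 0.04 over 7 genes, with 0 higher and 2 lower at an unadjusted p under 0.05 (all genes: 14.4% and 9.12%). Pgd, of the pentose phosphate pathway, was 1139, 1154 and 1223 TPM in the WT libraries and 1014, 1040 and 1084 TPM under the LRP5-null label (log2 fold change -0.16, limma adjusted p = 0.171). Idh1, the cytosolic isocitrate dehydrogenase, had -0.15 (limma adjusted p = 0.206), also without overlap, and Pgls, of the pentose phosphate pathway too, overlapped at 0.22 (limma adjusted p = 0.295).

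Enzymes that handle superoxide and peroxide had a median of 0.06 over 11 genes, with 3 higher and 1 lower at an unadjusted p under 0.05 (all genes: 14.4% and 9.12%). The higher ones were Txnrd1, a thioredoxin reductase, at 0.28 (limma adjusted p = 0.132), and the peroxiredoxins Prdx2 at 0.28 (limma adjusted p = 0.149) and Prdx5 at 0.15 (limma adjusted p = 0.177). The lower one, named after its value was seen, was Gsr, glutathione reductase, at -0.18 (limma adjusted p = 0.177). None of these 4 overlapped between the groups, where 17.4% of all genes were higher and 12.3% lower without overlap.

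Transcription factors known to act on oxidase genes had a median of -0.04 over 9 genes, with 2 higher and 0 lower at an unadjusted p under 0.05 (all genes: 14.4% and 9.12%). Gfi1, a transcriptional repressor, was 5.95, 6.92 and 6.12 TPM in the WT libraries and 8.40, 8.39 and 8.41 TPM in those labelled LRP5-null. Its groups did not overlap. Gfi1 differed by 0.36 on the log2 scale (limma adjusted p = 0.0892), and by 0.40 against WT replicate 3 alone. Cebpe, a factor of late granulocyte maturation, had 0.23 (limma adjusted p = 0.159), without overlap. Elf1, an Ets factor, had -0.11 (limma adjusted p = 0.373), and Spi1, the gene of PU.1 and named after its value was seen, had -0.10 (limma adjusted p = 0.379). For both, the libraries labelled LRP5-null were all below the WT libraries, as were those of 12.3% of all genes.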

How the data were processed

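Bone marrow neutrophil RNA was sequenced in 3 libraries for each of both labels. The labels name a Percoll gradient and an mRNA kit, the methods CD11b+ Ly6G+ sorting, shorter single-end reads from a stranded kit for total RNA, and the read summary lists paired-end reads of 94 bases. The authors aligned to mm9 and name DESeq2 (no version is given for either), while the tool that made the deposited TPM is not given in the sources used here. The deposited read summary holds counts of reads (249841492 to 340580330 per library), percent of reads per class and a ratio for coverage bias. TPM are not counts, so no count model was used, and the counting error of a gene was not estimated.

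Genes with a mean TPM of 1 or more were compared on log2(TPM + 1) by limma 3.58.1 (R 4.3.3), whose variance prior followed the mean (a trend), with no covariate and with Benjamini-Hochberg adjustment over all 9775. Ratios were compared with an exact permutation test (scipy 1.17.1). The fit was tested on simulated data with noise independent between genes. It recovered 32.5% of added changes of 0.5 on the log2 scale and 89.0% of those of 1.0. Alternatives were a pseudocount of 0.1, no filter or a minimum of 5 TPM, median-ratio and quantile scaling, rescaling that omits mitochondrial genes and the 20 most abundant ones, limma with robust shrinkage or lacking the trend, leaving out each library, a replicate block, the ribosomal share as a covariate, WT replicate 3 as the only WT library, and removal of GC and length trends (natural splines of 5 degrees of freedom for each, over the 89.7% of genes with an annotated transcript).

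The members and gene lists were chosen with earlier results of these data known. Named in the text were the 9 members, of each related list the called genes and the 3 with the smallest p, Lrp5, Lyz2 and sex-linked genes as checks, and the 3 genes most like Cybb and Rac1. Coordinates, GC content and coding sequences came from GENCODE M1 (NCBIM37), promoter windows from RefSeq (GRCm38.p6), where 4 of the 9 genes matched. Ncf4, Rac1, Rac2, Rap1a and Hvcn1 had no entry.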

Additional observations from a re-analysis of the deposited data

How the results depend on the processing

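Of 162 alternative values for the 9 oxidase genes, 144 kept direction and side of the threshold, 4 passed it and 14 changed sign. The filter settings, the limma settings and the replicate block left each log2 fold change as it was, so its sign could not differ. The number of oxidase genes called was 0 with all libraries, 0 to 3 with a library left out (3 without WT replicate 3) and 1 with GC and length trends removed. Of all genes tested, 0.532% were called with all libraries, 19.6% without WT replicate 3 and 4.85% with the trends removed. With a library left out, Ncf4 ran from -0.0253 to 0.0533 (negative without WT replicate 1 and without LRP5-null replicate 2), Rac2 from -0.0384 to 0.162 (negative without WT replicate 1) and Hvcn1 from -0.119 to 0.0538 (positive without WT replicate 3). Ncf4 was -0.0315 under median-ratio scaling, -0.0467 with the ribosomal covariate, -0.0690 against WT replicate 3 alone and -0.111 with GC and length trends removed. Rac2 was -0.115, -0.182 and -0.0242 under the latter 3 fits. Rac1 was -0.235 against WT replicate 3 alone, where the log2 difference of the Rac2 to Rac1 ratio was 0.0538. Cybc1 was 0.0089 under quantile scaling and Cybb 0.0099 with the trends removed.

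The number of all genes called, 52, became 3 of 23220 without a filter, 29 at a minimum of 5 TPM, 95 after rescaling without mitochondrial and abundant genes (68 higher and 27 lower, against 26 and 26), 6 with the ribosomal covariate, 6 against WT replicate 3 alone and 425 with GC and length trends removed. It ran from 2 to 1920 with each library left out, with 1920 without WT replicate 3, 18 without WT replicate 1, 3 without WT replicate 2, and 2, 15 and 2 without LRP5-null replicates 1, 2 and 3. The causes were not tested, and without WT replicate 3 the label cannot be told apart from the ribosomal share and GC content. With a replicate block 4 genes were called, none an oxidase gene. The numbers pair no samples by their labels. Deviations of same-numbered libraries correlated at 0.23, -0.01 and 0.13 across genes, and those of differently numbered ones at -0.21 to 0.08. Since no count model was used, the error rests on the spread of 3 libraries a group.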
